A study of Mus musculus and Homo sapiens with 40 samples.

Results

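The binding sites of CEBPA p30-ERT2 in mouse HPC-7 cells were compared between an antibody against CEBPA and an antibody against the estrogen receptor (ER) part of the same fusion. Sites on chromosomes 1 to 19 and X were classed by overlap of at least 1 bp. The anti-CEBPA list held 31823 sites, of which 20161 overlapped an anti-ER site and 11662 did not. The anti-ER list held 33952 sites, of which 20096 overlapped an anti-CEBPA site and 13856 did not. Counting the sites of both antibodies at their anti-CEBPA summits, the 3 classes held 45679 sites, against 586077 peaks in the 7 mouse lists of the series that were used.

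The series examined by ChIP-seq how the CEBPA isoforms p42 and p30 bind and mark chromatin, in 40 samples. HPC-7 is a hematopoietic progenitor line that, per the study, expresses very little CEBPA of its own. Cells were transduced with a retrovirus that carries CEBPA p30-ERT2 (or p42-ERT2) and GFP and were sorted for GFP, so the protein came from a constitutive transgene. The methods state that 4-hydroxytamoxifen was given to move the fusion into the nucleus; the labels give no treatment for the untreated groups. Both p30 groups were taken as untreated p30-ERT2 cells, with 1 library each. The p42 groups used for comparison were taken as untreated p42-ERT2 cells, with 1 library per antibody. The titles of the anti-ER libraries name the untreated state, and those of the anti-CEBPA libraries name no treatment. H3K27ac was measured in 3 samples each of untreated p30 cells and of p30 cells given LPS at 100 ng/mL for 2 h, and H3K4me1 in 2 samples of untreated p30 cells. The peak list of each mark was called on pooled samples.

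With 1 library per antibody, the antibody cannot be told apart from the library, its input or the way its peaks were called. No p-value is given, and the 95% Wilson intervals cover counting error over sites only. The study states only a general range of reads for its samples, and the lists give no read count, so how many reads each rests on could not be compared. As a check of the cell type, all 11 progenitor markers looked at, among them Kit, Cd34, Gata2 and Tal1, had an H3K27ac peak at the promoter. This was so for 2 of 12 lymphoid genes (Rag2 and Lck) and 2 of 16 genes of other lineages (Myog and Pax6), against 51.4% of all protein-coding genes.

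CEBPA is a basic leucine zipper transcription factor that drives myeloid differentiation. Its dimers bind palindromes such as TTGCGCAA, and dimers with ATF4, a stress-responsive factor of the same superfamily, bind a composite of the CEBP and ATF sequences. The p30 isoform, translated from the same transcript as p42 at a later start and favored by mutations in acute myeloid leukemia, lacks N-terminal transactivation sequence but keeps the DNA-binding domain. H3K27ac lies at active promoters and enhancers, and H3K4me1 lies at enhancers, active or not.

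The best-ranked distal sites of each class, outside annotated promoters, show which sequences the antibodies recovered. Sites of both antibodies were ordered here by the mean of their ranks, in percent, in both lists, and the others by rank in their own list. Sequences are 101 bases of the plus strand of GRCm39, centered on the summit. Capitals mark matches to the CEBP motif TTGCNNAA and to the CEBP:ATF4 composite TGATGCAA, on either strand. The 3 best-ranked sites found with both antibodies each held the perfect palindrome within 10 bp of the summit.
both antibodies, chr17:64194137-64194237: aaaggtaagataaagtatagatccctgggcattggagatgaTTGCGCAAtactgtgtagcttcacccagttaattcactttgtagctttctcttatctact
both antibodies, chr1:9002645-9002745: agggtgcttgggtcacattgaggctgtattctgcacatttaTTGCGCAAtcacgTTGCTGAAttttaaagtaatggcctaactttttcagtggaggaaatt
both antibodies, chr2:72877485-72877585: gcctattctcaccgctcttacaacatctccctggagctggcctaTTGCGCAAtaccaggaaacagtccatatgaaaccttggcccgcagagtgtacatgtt

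Of the 3 best-ranked anti-CEBPA only sites, the second and the third held a CEBP match within the bases shown. The 2 best-ranked sites with the composite are added, because this sequence was most frequent in this class; they were chosen after the values were seen.
anti-CEBPA only, chr12:87622424-87622524: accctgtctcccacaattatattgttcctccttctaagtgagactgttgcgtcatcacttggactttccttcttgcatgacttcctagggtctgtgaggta
anti-CEBPA only, chr4:66186046-66186146: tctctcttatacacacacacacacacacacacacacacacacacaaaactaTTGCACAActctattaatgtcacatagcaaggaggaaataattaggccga
anti-CEBPA only, chr7:35938778-35938878: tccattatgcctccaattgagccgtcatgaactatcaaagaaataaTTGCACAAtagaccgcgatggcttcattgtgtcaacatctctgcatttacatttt
anti-CEBPA only, chr12:42420541-42420641: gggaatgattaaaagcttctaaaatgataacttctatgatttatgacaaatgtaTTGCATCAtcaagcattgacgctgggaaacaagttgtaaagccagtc
anti-CEBPA only, chr2:76880936-76881036: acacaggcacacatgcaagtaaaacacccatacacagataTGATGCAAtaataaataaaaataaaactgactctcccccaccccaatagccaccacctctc

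Of the anti-ER only sites, the 3 best-ranked distal ones lay in repeated sequence, and the first 2 of them shared a run of 94 bases although they lie apart on chromosome 13. The 3 best-ranked distal sites in sequence that occurs once in the assembly are therefore added, a choice made after seeing the data. None of these 3 held a CEBP or composite match in the bases shown.
anti-ER only, chr13:12964104-12964204: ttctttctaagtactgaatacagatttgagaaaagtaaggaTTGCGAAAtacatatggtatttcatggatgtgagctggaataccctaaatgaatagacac
anti-ER only, chr13:13123840-13123940: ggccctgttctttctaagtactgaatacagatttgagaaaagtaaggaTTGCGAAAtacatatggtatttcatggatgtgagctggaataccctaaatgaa
anti-ER only, chr10:22096508-22096608: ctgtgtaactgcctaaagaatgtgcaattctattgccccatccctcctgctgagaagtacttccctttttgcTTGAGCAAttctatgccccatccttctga
anti-ER only, chr1:52694539-52694639: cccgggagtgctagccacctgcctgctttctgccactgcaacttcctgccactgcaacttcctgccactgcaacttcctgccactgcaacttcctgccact
anti-ER only, chr16:44845930-44846030: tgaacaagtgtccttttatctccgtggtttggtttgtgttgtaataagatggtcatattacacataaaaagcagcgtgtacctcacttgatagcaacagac
anti-ER only, chr1:138165194-138165294: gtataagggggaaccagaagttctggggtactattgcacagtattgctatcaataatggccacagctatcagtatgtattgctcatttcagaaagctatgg

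Strong sites were found with both antibodies and weak ones often with 1. The anti-ER list shared 63.4% (interval 62.8 to 63.9) of the anti-CEBPA list, and 59.2% (58.7 to 59.7) of the anti-ER list was shared in turn. In deciles of the anti-CEBPA list, ranked by q-value, the share fell from 100% in the first (3181 of 3182 sites) to 33.8% in the last. In the anti-ER list it fell from 97.6% to 14.3%. Where both lists had a site, the summits were close: the median distance over 20175 overlapping pairs was 10 bp, and 97.6% of pairs lay within 100 bp. Across pairs the fold enrichment of the lists was related with a Spearman rho of 0.58, a description over sites that share their libraries. Few sites were classed by a margin of some bases. Only 3 pairs overlapped by 50 bp or less, and 3 sites of each 1-antibody class lay within 100 bp of a site of the other antibody. Wider margins took in more sites. Within 1 kb of the other antibody lay 312 anti-CEBPA only and 907 anti-ER only sites. With a reciprocal overlap of 50%, 19409 anti-CEBPA sites were shared. Because the classes were set by overlap, these values describe the split.

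**Figure D1:**
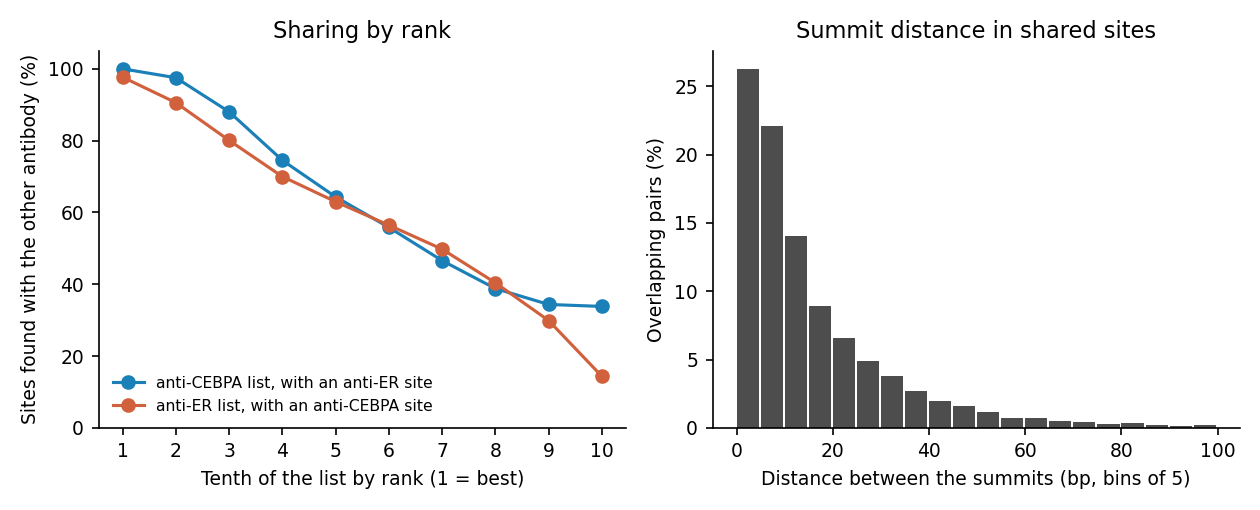
Left, share of sites found with the other antibody (%) in deciles of each p30 list by rank, where 1 holds the best-ranked sites. Right, distance between anti-CEBPA and anti-ER summits (bp) for overlapping pairs, in percent of all pairs. Sharing fell from 100% to 33.8% in the anti-CEBPA list and from 97.6% to 14.3% in the anti-ER list, and the median distance was 10 bp.

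The fold enrichment over local background, as deposited by the authors, differed between the classes as their ranks do. Sites of both antibodies had a median fold of 9.48 in the anti-CEBPA list and 8.96 in the anti-ER list. Anti-CEBPA only sites had a median of 6.05, with 10% below 4.66 and 10% above 8.95. Anti-ER only sites had a median of 5.25, with 10% below 3.57 and 10% above 9.04. The best anti-CEBPA only site ranked 3099 of 31823, whereas the best anti-ER only site ranked 30 of 33952.

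Active chromatin separated the classes. The marks were measured in other libraries than those that set the classes. An H3K27ac peak of untreated p30 cells covered the summit at 48.7% (47.9 to 49.5) of anti-ER only sites, at 31.3% (30.7 to 32.0) of sites of both antibodies and at 5.05% (4.67 to 5.46) of anti-CEBPA only sites. Where sharing required a reciprocal overlap of 50%, it was 8.55% of anti-CEBPA only sites. For H3K4me1 the shares were 34.8%, 20.9% and 4.68%. Neither mark covered 92.3% of anti-CEBPA only sites, against 61.9% of the sites of both antibodies and 41.1% of anti-ER only sites. H3K4me1 without H3K27ac was found at 10.2% of anti-ER only sites, 6.77% of sites of both antibodies and 2.62% of anti-CEBPA only sites. The intervals of the 3 classes did not overlap for any of these shares. Leaving promoters out, H3K27ac covered 43.6%, 26.4% and 3.82% of the distal sites of the anti-ER only class, the class of both antibodies and the anti-CEBPA only class. After LPS the H3K27ac shares were 49.6%, 32.0% and 5.29% in the same order, each less than 1 percentage point above the untreated value. These are net values. In the same order, 4.80%, 3.51% and 1.25% of sites lay in an H3K27ac peak after LPS but not untreated. The reverse was so for 3.87%, 2.82% and 1.01%.

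**Figure D2:**
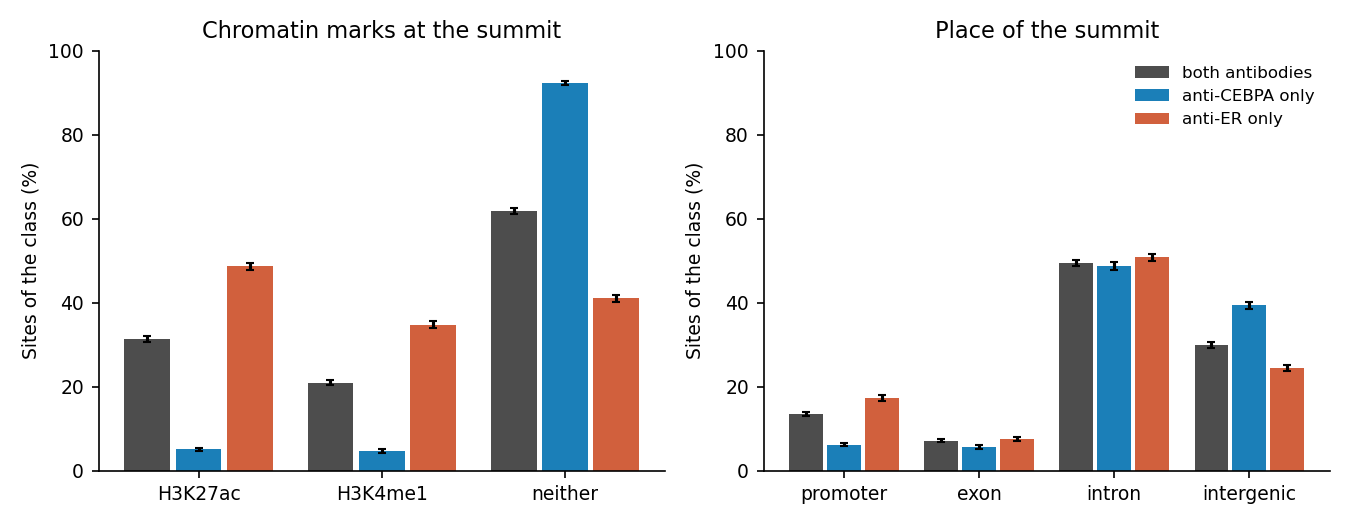
Share of sites (%) of each class with the summit in an H3K27ac peak, an H3K4me1 peak or neither (left) and in a promoter, exon, intron or intergenic sequence (right). Error bars are 95% Wilson intervals over sites. H3K27ac covered 48.7% of anti-ER only and 5.05% of anti-CEBPA only sites.

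The difference in marks held among sites of like rank. In 9 of 9 deciles of the anti-CEBPA list with at least 20 sites of each class, fewer anti-CEBPA only sites than sites of both antibodies lay in H3K27ac. Their shares ran from 0.985% to 9.54%, against 25.9% to 52.0%. In 10 of 10 deciles of the anti-ER list, more anti-ER only sites did, with 43.0% to 67.9% against 14.1% to 47.0%. The best decile of the anti-ER list held 80 anti-ER only sites, 52.5% of them in H3K27ac.

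**Figure D3:**
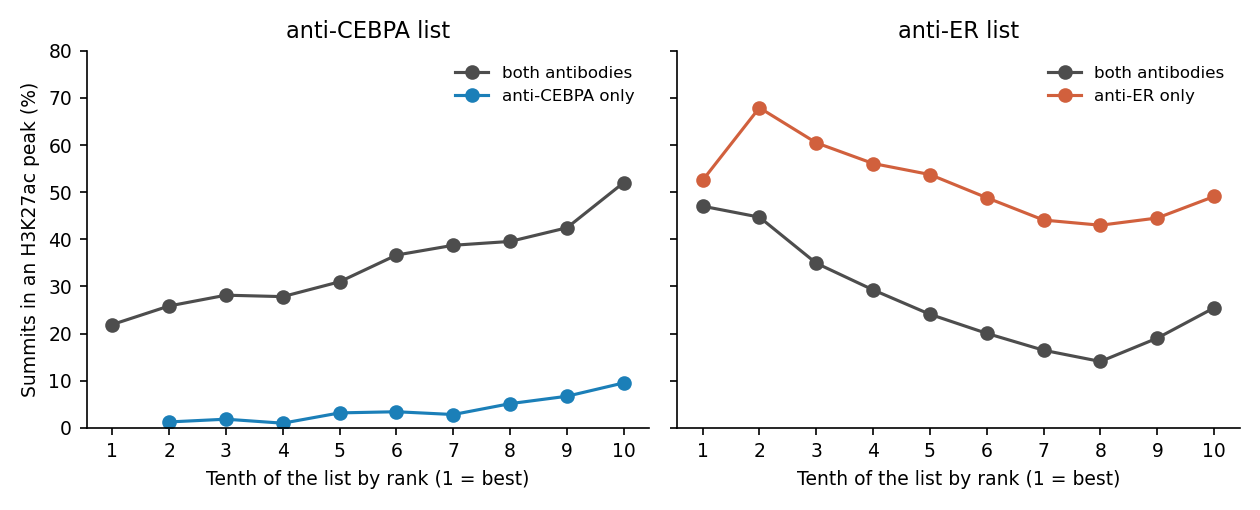
Share of summits in an H3K27ac peak (%) by decile of the anti-CEBPA list (left) and the anti-ER list (right), for sites of both antibodies and sites of 1 antibody. Points with under 20 sites are left out. Anti-CEBPA only sites stayed between 0.985% and 9.54% and anti-ER only sites between 43.0% and 67.9%.

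The same marks went with rank inside the shared sites. Of 6321 pairs in H3K27ac, 78.6% had a better rank, in percent of the list, with anti-ER than with anti-CEBPA. Their median rank was at 21.7% of the anti-ER list and at 43.3% of the anti-CEBPA list. Of 12488 pairs in neither mark, 29.4% were better ranked with anti-ER, and the medians were 41.4% and 29.9%. These ranks lie within the lists that set the classes and are given as a description.

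Anti-ER only sites lay closer to genes than anti-CEBPA only sites. A promoter, from 1000 bp upstream to 100 bp downstream of an annotated start, held 17.3% (16.6 to 17.9) of anti-ER only sites, 13.5% (13.1 to 14.0) of sites of both antibodies and 6.21% (5.78 to 6.66) of anti-CEBPA only sites. Counting promoters within 2500 bp of a start, the shares were 36.4%, 29.7% and 17.999%. Intergenic sequence held 24.4%, 29.9% and 39.4%. Introns held 50.9%, 49.4% and 48.8%, and the rest were exonic. The median distance to the nearest protein-coding start was 18.5 kb for anti-ER only sites, 27.7 kb for sites of both antibodies and 67.0 kb for anti-CEBPA only sites. At promoters, H3K27ac covered 73.4% of anti-ER only sites, 62.9% of sites of both antibodies and 23.6% of anti-CEBPA only sites. The windows at the summits had a mean GC content of 45.2%, 42.9% and 40.0% in the same order. On chromosome X, where H3K27ac peaks were scarce at 8.67 per Mb against 52.9 per Mb over all chromosomes used, there were 2.10 anti-CEBPA only, 1.84 shared and 1.23 anti-ER only sites per Mb. Over all these chromosomes the densities were 4.43, 7.66 and 5.26 per Mb.

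The CEBP sequence was present in all classes above its local background. In 200 bp windows around the summit, TTGCNNAA was found at 56.2% (55.5 to 56.9) of sites of both antibodies, 47.5% (46.6 to 48.4) of anti-CEBPA only sites and 33.5% (32.7 to 34.2) of anti-ER only sites. Windows 5 kb to either side held it in 8.83%, 9.77% and 8.42%, and windows at protein-coding starts in 5.77%. A shuffled form, TGTCNNAA, was found at 15.9%, 15.3% and 15.3% of sites, against 11.1% to 11.6% of flanking windows. Where a CEBP match was present, its median distance to the summit was 8 bp for both antibodies, 12 bp for anti-CEBPA only and 11 bp for anti-ER only.

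The CEBP:ATF4 composite had another order. TGATGCAA was found at 14.9% (14.3 to 15.6) of anti-CEBPA only sites, 8.16% (7.79 to 8.55) of sites of both antibodies and 4.19% (3.86 to 4.53) of anti-ER only sites. The flanking windows held it in 0.682%, 0.583% and 0.494%, and windows at protein-coding starts in 0.465%. A composite match may overlap a CEBP match in part but is never the same 8 bases. Counting sites with the composite and no CEBP match, the shares were 12.8%, 6.60% and 3.43%. The composite was more frequent in anti-CEBPA only sites than in sites of both antibodies in 9 of 9 deciles of the anti-CEBPA list, with 11.7% to 20.0% against 5.76% to 10.1%. In the anti-ER list it was less frequent in anti-ER only sites in 10 of 10 deciles. At distal sites in neither mark the shares were 15.3%, 8.79% and 6.29%, and at distal sites in H3K27ac 12.0%, 7.48% and 2.94%.

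Motifs of other hematopoietic factors were most frequent in the anti-ER only class. GAGGAAG, a motif of PU.1, the myeloid and lymphoid ETS factor encoded by Spi1, was found at 14.8% (14.2 to 15.4) of anti-ER only sites, 10.0% of sites of both antibodies and 5.48% of anti-CEBPA only sites. The flanks held it in 6.48%, 6.42% and 5.90%. TGTGGTT, the RUNX motif, bound by RUNX1 in progenitors, was found at 11.4%, 7.08% and 4.30% of sites, against 5.16%, 5.20% and 4.80% of flanks. TGANTCA, the motif of AP-1, was found at 10.0%, 7.92% and 6.34%, against 6.14%, 5.87% and 6.19% of flanks. For these 3 motifs the anti-CEBPA only sites lay close to their flanks or below them. At distal anti-ER only sites in H3K27ac, the share with the PU.1 motif was 18.8%, and in distal sites of both antibodies in H3K27ac it was 17.8%. In neither mark it was 10.1% and 6.20%. The palindromic estrogen response element was found at 7 of 13856 anti-ER only sites, 4 of 11662 anti-CEBPA only sites and 3 of 20161 sites of both antibodies. The GATA motif AGATAAG, with 2.90% to 3.33% of sites and 2.92% to 2.99% of flanks, was near its flanks in every class.

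**Figure D4:**
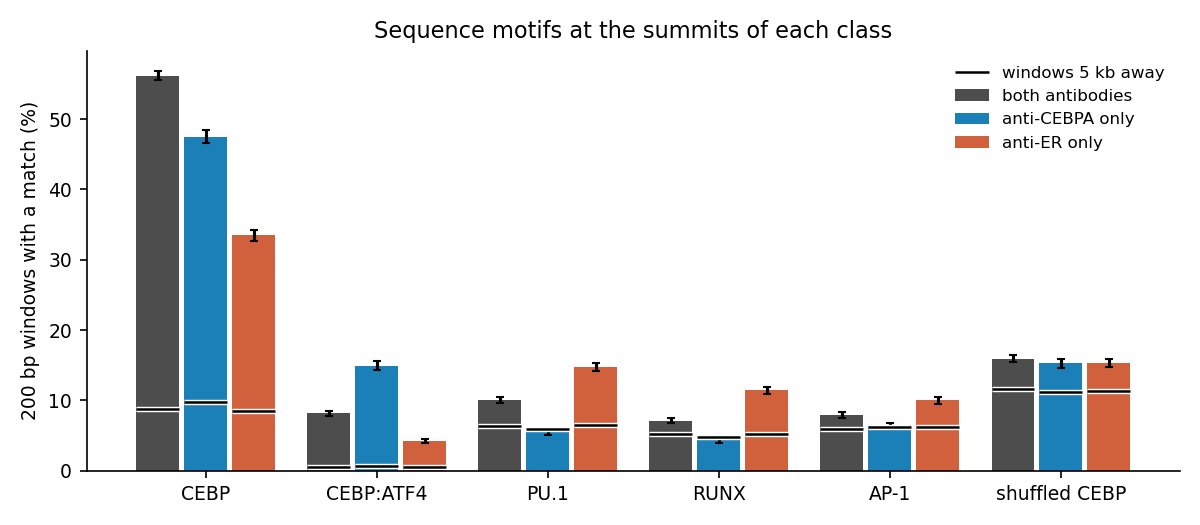
Share of 200 bp windows around the summit with a match (%), for 5 motifs and a shuffled CEBP sequence, by class. Error bars are 95% Wilson intervals over sites, and black lines give windows 5 kb to either side. The composite was most frequent in anti-CEBPA only sites (14.9%) and the PU.1 motif in anti-ER only sites (14.8%).

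Repeated sequence was more frequent in the anti-ER only class. The 96 bases at the summit occurred more than once in the assembly at 5.88% (5.50 to 6.29) of anti-ER only sites, 0.714% of sites of both antibodies and 0.377% of anti-CEBPA only sites. It held for 9 of the 10 best-ranked anti-ER only sites, all 10 of which were in the p42 anti-ER list and none in the p42 anti-CEBPA list. Whether reads that align to several places were treated alike in both lists is not given in the sources used here, and its part in the split was not tested. Of the 815 repeated anti-ER only sites, 4.91% lay in H3K27ac. Counted over single-copy sites of both lists, H3K27ac covered 51.4% of anti-ER only and 5.22% of anti-CEBPA only sites. The anti-ER list also held 6 sites wider than any anti-CEBPA site, with folds of only 2.92 to 4.68, and 4 of them ranked above every anti-ER only site.

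The p42 libraries, which had no part in setting the classes, held most anti-CEBPA only sites with the same antibody. Of anti-CEBPA only sites in p30 cells, 69.2% (68.3 to 70.0) were called with anti-CEBPA in p42 cells and 6.26% (5.83 to 6.71) with anti-ER. The latter was 10.3% where sharing required a reciprocal overlap of 50%. Of anti-ER only sites, 37.1% (36.3 to 37.9) were called with anti-ER in p42 cells and 34.9% (34.1 to 35.7) with anti-CEBPA. Neither p42 list held 48.4% of anti-ER only, 30.2% of anti-CEBPA only and 5.29% of sites of both antibodies. The p42 lists differ in length, with 47489 anti-CEBPA and 23210 anti-ER sites, and the part of this in the shares was not tested. Sites with the composite were 15.7% of the anti-CEBPA only sites called again with anti-CEBPA and 13.3% of those in neither p42 list. Anti-ER only sites in neither p42 list held the CEBP motif in 26.9%, against 38.4% of those called again with anti-ER. Of these groups 54.9% and 51.4% lay in H3K27ac. Another 2018 anti-ER only sites were called in p42 cells with anti-CEBPA but not with anti-ER. Of these, 42.6% held the CEBP motif and 21.2% lay in H3K27ac.

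**Figure D5:**
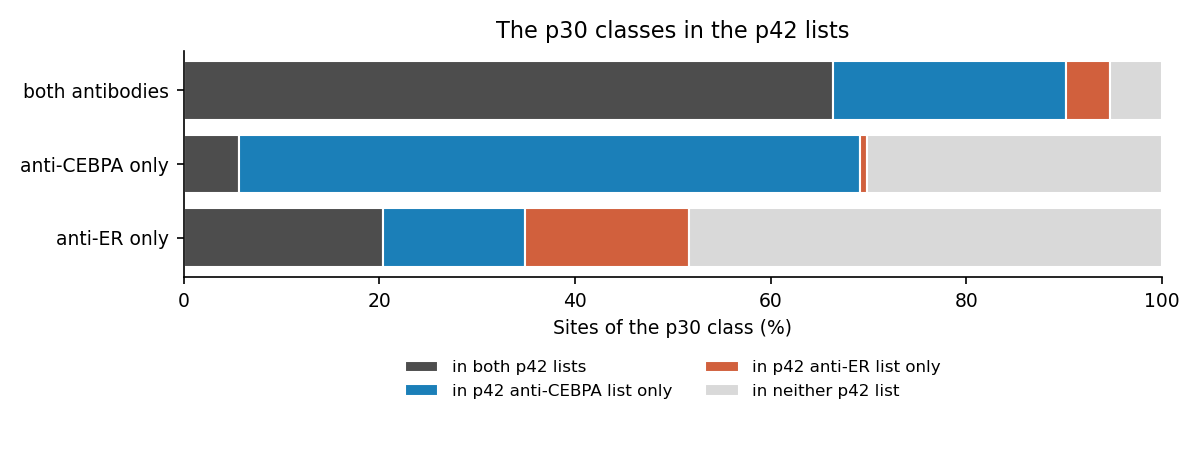
Share of the sites of each p30 class (%) that overlap a site in both p42 lists, in 1 of them or in neither. Of anti-CEBPA only sites, 63.6% were in the p42 anti-CEBPA list only, and of anti-ER only sites 48.4% were in neither list.

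Splitting the p42 lists in the same way gave the same order of shares. In p42 cells the composite was found at 11.9% (11.5 to 12.3) of anti-CEBPA only sites, 7.16% (6.80 to 7.55) of sites of both antibodies and 3.42% (2.96 to 3.96) of anti-ER only sites. The PU.1 motif was found at 5.13%, 10.8% and 16.7%, and promoters held 5.75%, 13.6% and 18.2%. Repeated sequence was found at 0.694%, 0.807% and 12.0%.

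The 6 best-ranked sites of both antibodies lay outside both marks, but many other strong shared sites did not. Among shared sites in the best decile of each list, 21.9% (anti-CEBPA list) and 47.0% (anti-ER list) lay in H3K27ac. By the mean of the ranks in both lists, the first 6 lay near Fer, Sntg1, Sp3, Crim1, Dlgap1 and Atl3, 6005 bp to 66.8 kb from the start, 5 of them in introns, and none was in H3K27ac or H3K4me1. The first, in Fer, a tyrosine kinase gene, at chr17:64193975-64194412, had a fold of 87.6 with anti-CEBPA and 224 with anti-ER, with the summits at the same base. The first 6 anti-CEBPA only sites lay nearest to Oog1, Astn2, Zfp507, Lrrn3, Ncam2 and Krtap9-5, with folds of 17.7 to 20.5. All 6 were called with anti-CEBPA in p42 cells, and none lay in a mark. The first 6 anti-ER only sites lay nearest to Dynlt2a2, Ermard, Prl2c3, Prl2c2, Raet1e and again Prl2c3, with folds of 54.5 to 68.0, and each lay in sequence with 2 or 3 copies. Among single-copy distal ones, the first lay in an exon 24.7 kb from the start of Nemp2 at chr1:52694377-52694884, with a fold of 50.5 and both marks. The bases at its summit hold a short unit repeated in tandem.

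Among the genes nearest to the most sites were Zfp386 (64 sites), Alkbh8 (43), Efna5 (31) and Cadm2 (30) for both antibodies. Alkbh8 sites had a median fold of 2.32 and 65.1% of them were in repeated sequence. For anti-CEBPA only sites they were Cadm2 (25), Robo2 (24), Pcdh9 (22), Pla2g4a (22) and Robo1 (22). Cadm2, Pcdh9, Robo1 and Robo2 encode adhesion or axon guidance proteins, and none of the anti-CEBPA only sites nearest to them lay in H3K27ac. For Pla2g4a the share was 9.09%. Their median distance to the start ran from 131 kb (Robo2) to 1132 kb (Pcdh9). Sites of both antibodies nearest to Cadm2, Robo2, Robo1 and Pcdh9 numbered 30, 28, 21 and 15. None of those nearest to Cadm2 lay in H3K27ac. For anti-ER only sites they were Zfp386 (31), Cited2 (28), Pde4d (22), Ptprc (20) and Tbl1xr1 (20). Ptprc encodes the leukocyte antigen CD45, and 65.0% of the anti-ER only sites nearest to it lay in H3K27ac. For Cited2, a transcriptional coregulator of hematopoietic stem cells, the share was 46.4%. Many of these sites lay far from the gene they were counted for. Their median distance to its start was 286 kb for Ptprc and 516 kb for Cited2, against 24.7 kb for Pde4d. Nearest-gene counts grow with the distance between genes, and no test was made.

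Gene lists of the hematopoietic system were read beside all protein-coding genes. A promoter site of both antibodies was found at 6.46% of 21408 genes, an anti-CEBPA only site at 1.38% and an anti-ER only site at 5.71%. Ranks below are in percent of the list, where low is strong, in the anti-CEBPA list for sites of both antibodies.

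Of 15 stem and progenitor transcription factors, 7 had a promoter site of both antibodies, 1 an anti-CEBPA only site and 5 an anti-ER only site. Tal1, a regulator of blood stem cells, had a site of both antibodies at 2.57%, and Meis1, a homeobox factor of stem cells, at 14.1%. The anti-CEBPA only site was at Lmo4 (47.2%), which also had one of both antibodies (31.6%). Anti-ER only sites lay at Gata2 (49.1%), Mef2c (58.9%), Ikzf1 (76.0%) and Lyl1 (94.5%). Mef2c also had a site of both antibodies (48.1%). Of 14 myeloid fate factors, 2 had a site of both antibodies, Nfil3 (14.1%) and Klf6 (66.0%), none an anti-CEBPA only site and 3 an anti-ER only site: Spi1 (12.8%), Nfil3 (18.1%) and Gfi1 (45.2%). Gfi1 is a repressor needed for neutrophils. The Spi1 site at 12.8% lay near a start inside the gene, 14.5 kb downstream of the gene start. Another anti-ER only site lay upstream of the gene start. A shared site 845 bp downstream of the gene start, with a fold of 32.6 with anti-CEBPA and 74.6 with anti-ER, was not counted. It lay beyond the promoter limit of 100 bp downstream of a protein-coding start.

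Among 9 genes of the C/EBP family and Tribbles, 3 had a site of both antibodies. They were Ddit3 (3.76%), which encodes CHOP, Trib3 (21.9%), a stress-induced pseudokinase, and Cebpg (38.9%). Anti-ER only sites lay at Cebpa itself (26.1%) and at Ddit3 (35.6%), and no anti-CEBPA only site was found. Of the p30 targets that the study discusses, Msi2, Nt5e and Gata2, 1 of 3 had a promoter site, the anti-ER only site of Gata2. Of 20 neutrophil granule and effector genes, 2 had a site of both antibodies, Ltf (25.5%) and Mpo (59.7%), and 6 an anti-ER only site. The latter included Camp (16.7%), Lcn2, S100a8 (48.9%) and Elane (72.5%), which encode granule or antimicrobial proteins. Of 15 growth factor receptors, 7 had a site of both antibodies, led by Il6ra (3.06%), Csf2rb (17.8%), Il1r1 (27.9%) and Il3ra (45.0%), and 2 an anti-ER only site, Csf3r (81.9%), the receptor of G-CSF, and Ifngr1 (82.8%).

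Inflammatory genes had promoter sites of all 3 classes. Of 20 cytokines, 6 had a site of both antibodies, led by Tnfsf14 (4.30%), Il1rn (6.78%), Il12a (31.2%) and Il6 (36.9%). Tnf had the anti-CEBPA only site (40.2%), and Csf3 (83.0%) and Il1a (92.0%) had anti-ER only sites. Of 17 chemokines, Ccl3 (17.8%) and Ccl6 (64.4%) had a site of both antibodies and none a site of 1 antibody. Of 16 genes of LPS sensing, 1 had a site of both antibodies, Lbp (8.17%), which encodes an LPS-binding protein, and 2 an anti-ER only site, Irak3 (54.8%) and Irak2 (61.1%). Of 12 NF-kB genes, Nfkbiz (27.1%), Nfkbie (80.7%) and Tnfaip3 (47.9%) each had a site, of both antibodies, anti-CEBPA only and anti-ER only, respectively.

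Of 20 AP-1 genes, 4 had a site of both antibodies, namely Mafg (6.66%), Maff (31.5%), Atf7 (43.1%) and Fosb (51.4%), and 2 an anti-ER only site, Jdp2 (42.8%) and Atf3 (96.8%). Of 20 stress response genes, 5 had a site of both antibodies, led by Ddit3, Herpud1 (3.78%), an endoplasmic reticulum stress gene, Trib3 and Slc3a2 (38.3%). One was anti-CEBPA only, at Atf5 (62.0%), and 5 genes had an anti-ER only site, led by Gadd45b (32.4%), Ddit3, Sesn2 (67.9%) and Hspa5 (97.2%). Of 15 estrogen-responsive genes, 1 had a site of both antibodies, Xbp1 (62.7%), and 2 an anti-ER only site, Nrip1 (71.3%) and Rara (99.3%).

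Other lists were taken as contrast. Of 24 replication genes, 2 had a site of both antibodies, Mcm3 (7.65%) and Cdc6 (90.7%), and Rrm2 (57.3%) an anti-ER only site. Of 30 ribosomal protein genes, 1 had a site of both antibodies, Rpl3 (91.3%), and 4 an anti-ER only site: Rpl23 (31.8%), Rpl18 (56.1%), Rps15 (91.5%) and Rpl10 (97.4%). None of the 16 genes of other lineages or 12 lymphoid genes had a promoter site of any class.

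Distal sites were counted by the nearest gene. Of all protein-coding genes, 36.5% were nearest to a distal site of both antibodies, 24.4% to an anti-CEBPA only site and 27.7% to an anti-ER only site. All 15 stem and progenitor factors were nearest to one of both antibodies, 8 to an anti-CEBPA only and 10 to an anti-ER only site. With the distal sites limited to H3K27ac, the shares of all genes were 13.8%, 1.86% and 14.2%. Of 14 myeloid fate factors, 12 were nearest to such a site of both antibodies and 10 to an anti-ER only one. Of 15 growth factor receptors the counts were 8 and 10, of 16 genes of LPS sensing 5 and 9, and of 20 inflammatory cytokines 10 and 11. Of 17 chemokines they were 3 and 5. The class of both antibodies had the higher count among stem and progenitor factors (11 and 9) and neutrophil genes (8 and 5). The same held for AP-1 genes (11 and 10), NF-kB genes (7 and 6) and the C/EBP family and Tribbles (4 and 3). Stress response genes had 5 and 5. None of the 12 lymphoid genes was nearest to such a site of either class. H3K27ac lay at the promoter of all 15 stem and progenitor factors and of 2 of the 12 lymphoid genes, and its part in these counts was not tested.

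At 8 loci, with 50 kb on both sides, there were 1 to 6 anti-ER only sites per locus. Anti-CEBPA only sites numbered 3 at Esr1 and 0 or 1 at each of the others. The counts are not scaled to the length of the loci, of which Esr1 and Msi2 are the longest. Over all chromosomes used there were 4.43 anti-CEBPA only sites per Mb. More of the anti-ER only sites lay inside H3K27ac than outside it at Cebpa, Gata2, Msi2, Fos and Spi1. Around Cebpa (chr7:34818718-34821353, plus strand) lay 1 site of both antibodies, 1 anti-CEBPA only site and 6 anti-ER only sites, 5 of the latter in H3K27ac. The shared site, 8.04 kb downstream of the start, had a fold of 9.23 with anti-CEBPA and 21.4 with anti-ER. An anti-ER only site lay 189 bp upstream of the start, with a fold of 11.3. Around Spi1 (chr2:90912562-90946101, plus strand), 3 sites of both antibodies and 3 anti-ER only sites were found, and all of the latter lay in H3K27ac. A shared site 845 bp from the start had a fold of 32.6 with anti-CEBPA and 74.6 with anti-ER, and one 16.1 kb from the start had folds of 36.3 and 38.1.

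Gata2 (chr6:88170559-88184018, plus strand), which encodes a stem cell zinc finger factor, had 2 sites of both antibodies, outside H3K27ac, and 2 anti-ER only sites within it, with folds of 8.23 and 7.35. Msi2 (chr11:88230208-88609339, minus strand), an RNA-binding protein gene, had 6 sites of both antibodies, 1 anti-CEBPA only and 4 anti-ER only. A shared site in its intron, 86.5 kb from the start, had a fold of 6.74 with anti-CEBPA and 40.6 with anti-ER. Nt5e (chr9:88209089-88254146, plus strand), which encodes the ectonucleotidase CD73, had 1 site of both antibodies and 4 anti-ER only, of which the strongest, in an intron, had a fold of 20.2.

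Fos (chr12:85520658-85524047, plus strand), an AP-1 gene, had 4 sites of both antibodies and 3 anti-ER only. The anti-ER only site 15.5 kb downstream of its start had a fold of 22.5 and lay in both marks, and the shared site 41.8 kb upstream had folds of 50.7 and 29.8 and lay in neither. Around Cxcl10 (chr5:92494497-92496748, minus strand), a chemokine gene, 4 sites of both antibodies and 1 anti-ER only site were found, none in H3K27ac. At Esr1 (chr10:4561593-4955626, plus strand), which encodes estrogen receptor alpha, lay 1 site of both antibodies, 3 anti-CEBPA only and 4 anti-ER only sites.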

How the data were processed

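Peak lists deposited by the authors were used as given. Per the study's methods, reads were trimmed with TrimGalore 0.6.6 and aligned with Bowtie2 to mm39 (GRCm39), Picard was used to drop duplicates, and MACS2 called narrow peaks over input, with replicates of histone marks pooled. The anti-ER list carries a mark of calling without a shifting model, and the anti-CEBPA list does not. Each list gives a fold enrichment and the −log10 of p-values and q-values, as deposited by the authors, down to a q-value near 0.05.

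Chromosomes 1 to 19 and X were kept, which left out 101 anti-CEBPA and 94 anti-ER peaks. Sites were ranked by −log10 q, then fold. Places came from all transcripts of GENCODE on GRCm39, in the order promoter, exon, intron and intergenic. Nearest genes and promoters of genes came from protein-coding transcripts. Motifs were searched on both strands in 200 bp. Copies of the 96 bases at each summit were counted over the whole assembly on both strands.

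Members and gene lists were chosen with earlier results of these data known. Named were the 6 best-ranked sites of each class, 3 distal ones with sequence (off chromosome 18), the 5 genes nearest to the most sites, 8 loci, and up to 4 members per gene list, best-ranked first. Sites of both antibodies were counted at anti-CEBPA summits and, where named, ordered by the mean of their ranks in percent of both lists. Alternatives were q-values under 1e-05, equal list lengths, reciprocal overlap of 50%, sites over 1 kb from the other antibody, stricter H3K27ac peaks, promoters within 2500 bp and motif windows of 100 bp. Single-copy summits were added after seeing the data. The overlap and copy counts were tested on simulated data. The study gives a general range of reads per sample and the lists give no read count, so depth per list is not known, and intervals cover counting error only. Python 3.11.15 was used with scipy 1.17.1, matplotlib 3.10.9, numpy 2.4.6 and pandas 2.3.3. Lists of H3K27ac and H3K4me1 in p42 cells and of ATF4 in KO-52 cells were not used here. One gene among those nearest to the most sites is not reported here.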

Additional observations from a re-analysis of the deposited data

Results flagged for a closer look

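The difference in the number of sites between the antibodies had opposite signs in the cell lines. The anti-ER list exceeded the anti-CEBPA list by 2129 sites in p30 cells. In p42 cells the number of anti-ER sites minus the number of anti-CEBPA sites was -24279. With 1 library per list, this difference between the lines was not tested.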

How the results depend on the processing

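No paired analysis was possible because each antibody list came from 1 library and no result came from a test. Of 79 values under alternatives, 39 stayed within the interval of the reported share and 40 moved outside it. The order of the classes in H3K27ac, promoter and CEBP motif shares stayed as reported under every alternative run.

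With q-values under 1e-05 in both p30 lists, the shared part was 66.7% of the anti-CEBPA list and 58.4% of the anti-ER list. H3K27ac then covered 30.2% of sites of both antibodies and 4.09% of anti-CEBPA only sites, and the CEBP motif was found at 57.4%, 49.1% and 34.9% of the both, anti-CEBPA only and anti-ER only classes. Of anti-CEBPA only sites, 75.3% were in the p42 anti-CEBPA list and 6.97% in the p42 anti-ER list, and of anti-ER only sites 39.7% and 41.0%.

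With equal list lengths, the overlap was 62.6% and 62.4%, and for anti-ER only sites the promoter share was 16.5%, the CEBP share 34.6% and the shares in p42 anti-CEBPA and anti-ER lists 38.0% and 40.7%. With reciprocal overlap of 50%, the overlap was 61.0% and 57.2%, H3K27ac covered 30.1% of both and 8.55% of anti-CEBPA only sites, and promoters held 7.29% of the latter. Of anti-CEBPA only sites 10.3% were then in the p42 anti-ER list, and of anti-ER only sites 37.0% in the p42 anti-CEBPA and 38.7% in the p42 anti-ER list.

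Over 1 kb from the other antibody, H3K27ac covered 4.33% of anti-CEBPA only and 47.1% of anti-ER only sites. With H3K27ac peaks of q under 1e-05 it covered 30.2%, 4.43% and 46.4% of the both, anti-CEBPA only and anti-ER only classes. In the same order, promoters within 2500 bp held 29.7%, 17.999% and 36.4%, and windows of 100 bp held the CEBP motif in 51.4%, 41.0% and 28.5%. Over single-copy summits, 60.4% of the anti-ER list was shared, H3K27ac covered 51.4% of anti-ER only sites, 6.82% of anti-CEBPA only sites were in the p42 anti-ER list and 36.7% of anti-ER only sites in the p42 anti-CEBPA list. The cause of these shifts was not tested. Numbers of sites move with depth, which is not known for each list.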
